A study of Mus musculus with 8 samples.

Results

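Macrophages and monocytes were followed through 51 genes for their surface receptors, enzymes and regulators, chosen by symbol from an expression table of mouse dorsal root ganglia. All 51 symbols were found among the 21878 rows of the table. The ganglia came from lumbar levels 4 and 5 of C57BL/6 mice, collected 3 days after a sham operation or a sciatic nerve cut, which the sample names call SNI. Animals of every group carried loxP-flanked Myh9 and Myh10, the genes for 2 non-muscle myosin heavy chains. The groups called WT had no Cre, and the groups called dKO also carried Advillin-Cre, so that recombination is directed at cells that use the Advillin gene, chiefly sensory neurons. Each of the 4 groups (WT and dKO, each with sham or SNI) held 2 RNA-seq libraries, 8 in all. The sources used here do not give the age of the mice or say whether ganglia were pooled.

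Resident macrophages lie between and around the neuron bodies of a ganglion. After a peripheral nerve is cut their number grows, partly by division and partly from blood monocytes. Many of their receptors signal through adaptor proteins with an immunoreceptor tyrosine-based activation motif (ITAM), and the transcription factor PU.1, encoded by Spi1, drives much of the program that macrophages share with neutrophils.

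Some properties of the libraries touch every result below. The unit is FPKM, a fragment count per unit of transcript length and of library size, with totals of 278310 to 339920 per library, and read depth is unknown. The labels do not tie the paired libraries of a group to separate animals; the p-values below thus reflect library-to-library spread, part of which may be technical. Advillin and Myh10 were lower in both dKO libraries than in both WT libraries of the same surgery, and so was Myh9. The 4 Y-linked genes examined summed to 22.75 to 38.66 FPKM in WT sham and dKO SNI and to at most 0.0109 in WT SNI and dKO sham. Each comparison of 2 groups that differ in surgery or in genotype alone therefore also differs in these transcripts. Such groups may thus differ in the sex of the animals, which the labels do not give. The difference between the injury responses of the genotypes cannot be told apart from this one. The contrasts averaged over genotypes or over surgeries hold groups with and without these transcripts on both sides. Their levels were not fully balanced: 2 of the 4 were called higher in each averaged contrast, with a median change of 0.27. WT sham 2 carried 558.4 FPKM of skeletal muscle markers, against at most 14.32 in any other library. In bulk tissue, more cells of a type and more RNA per cell cannot be told apart.

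Promoter sequence is shown for 7 of the genes, because PU.1, itself the product of a member, binds a purine-rich site with GGAA at its core. RefSeq sequences of the 250 bases before transcript starts (GRCm38.p6) were matched by symbol for 34 of the 51 members, giving 43 windows. The letters GAGGAA, on either strand, were in 18 of these 43 windows, which is 41.9%, against 23.3% of the 32851 windows of all genes. The longer match GAGGAAGT, which contains the shorter one, was in 11.6% of the members' windows and 2.44% of all. A composite of ETS and IRF sites, GGAANNGAAA, was in 11.6% against 2.3%, and the AP-1 letters TGACTCA were in 4.65% against 4.46%. A match is a run of letters and not a measured binding site, and the absence of one concerns this window only. The stretches below are 120 bases long, written in the direction of transcription, with every match to the 4 motifs in capitals; where the match lies on the other strand, the capitals show its reverse complement. For the surface receptors Mrc1 and Folr2, the windows are chr2:14229294-14229413 (plus strand) and chr7:101857267-101857386 (minus strand). For the scavenger receptor Cd68 and the lipid receptor Trem2, they are chr11:69666301-69666420 (minus strand) and chr17:48346281-48346400 (plus strand). For the Fc receptor Fcgr4 and the monocyte antigen Ly6c2, they are chr1:171018806-171018925 (plus strand) and chr15:75112020-75112139 (minus strand). Ly86 had no match to the 4 motifs and its window is chr13:37345225-37345344 (plus strand). The other windows shown were chosen for holding a match. Of the 34 matched members, 15 had GAGGAA, among them Spp1 and Marco. Fcer1g, Cybb and Lyz2, which rose after injury, had no match to the 4 motifs either. Whether a match goes with the injury change was not tested. The Cd68 stretch also holds the AP-1 letters. The Mrc1 promoter held 3 matches to GAGGAA, of which 1 lies in the part printed.
Mrc1: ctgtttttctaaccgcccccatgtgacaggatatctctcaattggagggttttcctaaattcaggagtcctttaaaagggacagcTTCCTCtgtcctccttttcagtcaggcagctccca
Folr2: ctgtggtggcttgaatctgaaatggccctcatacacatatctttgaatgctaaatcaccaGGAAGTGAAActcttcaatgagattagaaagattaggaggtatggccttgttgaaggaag
Cd68: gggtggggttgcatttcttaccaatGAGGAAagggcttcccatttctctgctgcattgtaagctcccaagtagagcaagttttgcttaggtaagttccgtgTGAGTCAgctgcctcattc
Trem2: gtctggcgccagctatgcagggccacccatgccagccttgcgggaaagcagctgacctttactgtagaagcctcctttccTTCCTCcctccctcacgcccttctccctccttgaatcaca
Fcgr4: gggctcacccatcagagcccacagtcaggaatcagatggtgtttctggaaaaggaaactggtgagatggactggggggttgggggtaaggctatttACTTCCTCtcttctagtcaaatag
Ly6c2: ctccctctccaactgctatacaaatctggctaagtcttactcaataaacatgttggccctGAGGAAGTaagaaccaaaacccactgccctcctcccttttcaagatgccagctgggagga
Ly86: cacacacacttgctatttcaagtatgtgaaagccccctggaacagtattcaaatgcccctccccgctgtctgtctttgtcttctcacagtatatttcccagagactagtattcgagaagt

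Most of the 51 genes rose after axotomy in both genotypes, and 0 were called lower. On the scale of log2(FPKM + 1), which understates low genes, the mannose receptor Mrc1, the chemokine Pf4 and the lysosomal glycoprotein Cd68 had the largest rises in WT ganglia. In dKO ganglia the rise on this scale was led by Ms4a6d, Aif1 and the ITAM adaptor Fcer1g. By ratio of mean FPKM, SNI to sham, Folr2 led the tested members, with 39.7 in WT and 22.8 in dKO, from at most 0.502 FPKM in any sham library. Together the 51 genes took 0.161 and 0.163% of a WT sham library's FPKM and 0.33 and 0.426% of a WT SNI library's. Their share was 0.182 and 0.204% in dKO sham libraries and 0.731 and 0.715% in dKO SNI libraries. Lyz2 and Ly86 made up much of these sums. Without them the shares were 0.0714 and 0.0731% in WT sham and 0.2 and 0.24% in WT SNI. In dKO they were 0.083 and 0.106% in sham and 0.407 and 0.438% in SNI. The dKO SNI libraries were thus the highest and the sham libraries the lowest.

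Of the 51, 48 reached the level needed for testing, 1 FPKM in at least 2 of the 8 libraries. In the sham libraries alone 37 reached it, and 11 did so only with the SNI libraries counted. The filter thus favoured a rise after injury in those 11, without fixing it in each genotype, and their rise is no separate evidence. The 11 are Trem2, Fcgr1, Fcgr4, Clec4n, Clec4d, Msr1, Cd163, Siglec1, Folr2, Gpr34 and Ms4a7. A gene is called at an adjusted p under 0.05 from limma with Benjamini-Hochberg adjustment over all 12884 genes tested. Changes are differences of mean log2(FPKM + 1) with their standard errors. In WT SNI vs WT sham, 40 members were called higher and 0 lower, against 13.6% of all tested genes called higher and 9.38% lower. Their median change was 1.35, and that of all tested genes 0.07. In dKO SNI vs dKO sham, 44 were called higher and 0 lower, against 23.8% and 24.6% of all genes, with medians of 2.11 and 0. Averaged over the genotypes, which sets groups with and without the Y-linked transcripts on both sides, 44 were called higher and 0 lower, against 29.5% and 25.5%. Of the 37 that reached the level in sham libraries, 30 were called higher in WT, 33 in dKO and 33 averaged over the genotypes. For 42 of the 51 every SNI library lay above every sham library, as for 12.4% of all genes in the table.

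**Figure D1:**
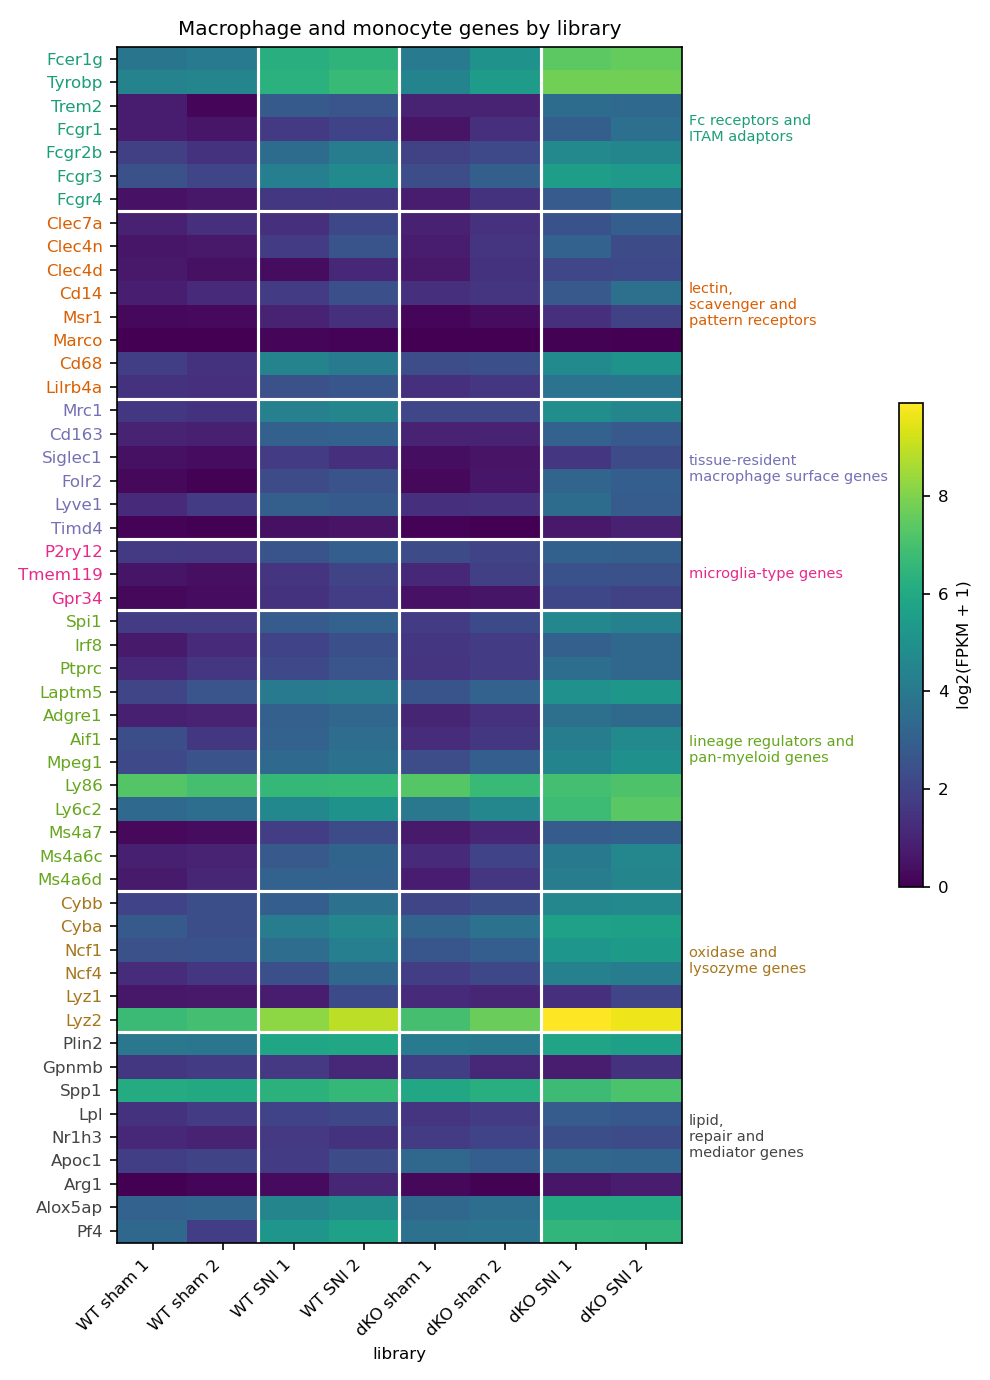
Level of the 51 members in each of the 8 libraries, as log2(FPKM + 1) on the colour scale, grouped by role. The 2 dKO SNI columns are the brightest in most rows, while Ly86 and Gpnmb show no rise and Marco, Timd4 and Arg1 stay dark throughout.

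After axotomy the genotypes differed in part of the list. In dKO SNI vs WT SNI, 32 of the 48 tested members were called higher and 0 lower, against 10.7% and 13.4% of all tested genes, with a median change of 0.97 for the members and -0.03 for all genes. Ly6c2, a surface antigen of classical monocytes and of some granulocytes, had the largest difference, 2.24 ± 0.25. Mrc1, the haemoglobin scavenger receptor Cd163 and the lipid-droplet protein Plin2 had differences of 0.27 ± 0.14, -0.14 ± 0.14 and -0.19 ± 0.13 and were not called. Both dKO SNI libraries lay above both WT SNI libraries for 42 of the 51 members, against 23.1% of all genes. Each of the 32 calls depended on single libraries. Without WT SNI 1 most calls were lost across the whole table, with 0.0778% of all genes called in either direction against 24.1% with all libraries. The members' count was then 0, with 30 members at an unadjusted p under 0.05 and 47 of 48 keeping their sign, and the lowest adjusted p among the members was 0.0648 in the same limma model. Without dKO SNI 2, with 0.0711% of all genes called, it was also 0, with 35 members at an unadjusted p under 0.05, 46 of 48 keeping their sign and a lowest adjusted p of 0.0698.

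**Figure D2:**
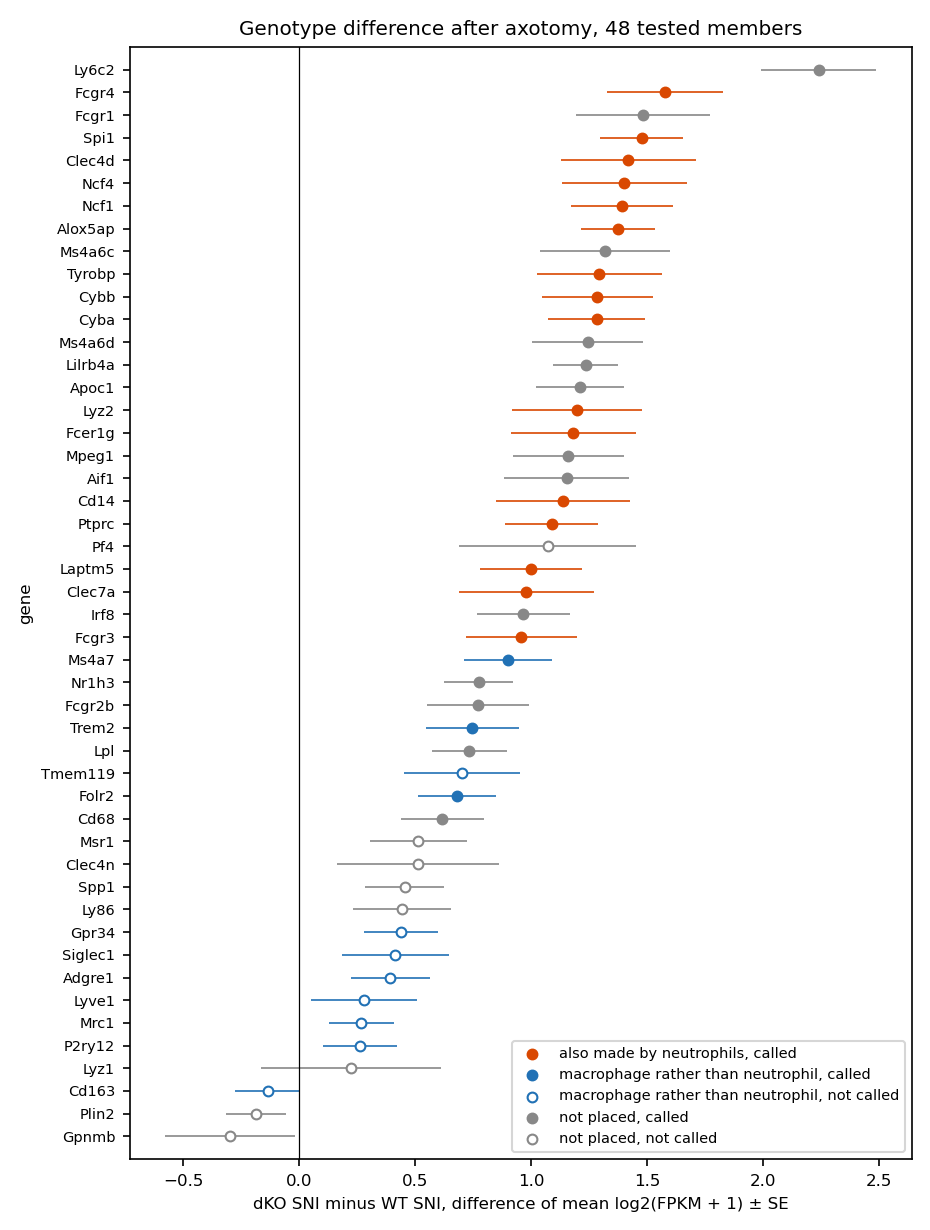
Difference of mean log2(FPKM + 1), dKO SNI minus WT SNI, with its standard error, for the 48 tested members in order of size; filled points are called and open points are not. Ly6c2 is at 2.24 and Cd163, Plin2 and Gpnmb lie below 0; colours give 2 classes of genes drawn up from general knowledge after the values were known.

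The Fc receptors and ITAM adaptors all rose in both genotypes. Tyrobp (DAP12) and Fcer1g are the adaptors that carry the ITAM for many myeloid receptors, Fcgr1, Fcgr3 and Fcgr4 are activating receptors for antibody, Fcgr2b is the inhibitory one, and Trem2 senses lipids and signals through Tyrobp. All 7 were called in both injury comparisons, with changes of 1.04 to 2.34 in WT and 2.06 to 2.89 in dKO, and all 7 were called higher in dKO SNI than in WT SNI. Trem2, Fcgr1 and Fcgr4 passed the filter only with the SNI libraries counted, so the filter favoured their rise and their injury calls are no separate evidence. The other 4 were called without that. Fcer1g stood at 13.6 and 15.8 FPKM after sham surgery and 72.2 and 85.1 after SNI in WT, and 16.4 and 33.1 after sham surgery and 171 and 187 after SNI in dKO. No 2 groups overlapped, and the dKO SNI pair was the highest. Its change was 2.34 ± 0.27 in WT and 2.89 ± 0.27 in dKO, with limma adjusted p of 0.000583 and 9.22e-05, and dKO SNI exceeded WT SNI by 1.18 ± 0.27 (adjusted p 0.0165). Tyrobp, its partner in function, stood at 20.4 and 21.5 (sham) and 79.4 and 102 (SNI) in the WT libraries, against 21 and 41.9 (sham) and 220 and 224 (SNI) in the dKO libraries. The sham groups overlapped, and the dKO SNI pair was the highest, 1.29 ± 0.27 above WT SNI (adjusted p 0.0133). Fcgr4 had the smallest injury change of the group. It was at 0.401 and 0.55 FPKM in the WT sham pair, 2.06 and 2 in the WT SNI pair, 0.726 and 1.74 in the dKO sham pair, and 6.27 and 10.2 in the dKO SNI pair. These are low levels, yet the groups did not overlap, and dKO SNI exceeded WT SNI by 1.58 ± 0.25 (adjusted p 0.00929). The WT injury call of Fcgr4 (1.04 ± 0.25, adjusted p 0.0163) was lost when any one of the 4 WT libraries was left out. Fcgr2b, Fcgr4, Fcgr3 and Fcer1g lie in that order on chromosome 1 between 170958617 and 171234365 (GRCm38), and similar receptor genes there may share reads.

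Lectin, scavenger and pattern receptors rose in part. This group holds the fungal-sugar receptors Clec7a, Clec4n and Clec4d, the endotoxin co-receptor Cd14, the scavenger receptors Msr1 and Marco, Cd68, and the inhibitory receptor Lilrb4a. Of its 8 genes 7 were tested; 5 were called higher after injury in WT, 7 in dKO, and 5 in dKO SNI over WT SNI. Clec4n, Clec4d and Msr1 passed the filter only through the SNI libraries. Cd68 stood at 2.61 and 1.75 FPKM after sham surgery and 20.6 and 16.2 after SNI in WT, and 4.02 and 4.36 after sham surgery and 25.5 and 32.2 after SNI in dKO. Injury separated it cleanly in both genotypes, by 2.62 ± 0.18 and 2.51 ± 0.18 (limma adjusted p 3.91e-05 and 4.54e-05). Its genotype difference after injury was smaller, 0.62 ± 0.18 (adjusted p 0.0365), and this call was also lost without WT SNI 2. Lilrb4a stood at 1.77 and 1.56 (sham) and 4.51 and 5.33 (SNI) in the WT libraries, against 1.49 and 1.93 (sham) and 12.5 and 13.3 (SNI) in the dKO libraries. Its sham groups overlapped and its SNI groups did not, with a genotype difference after injury of 1.24 ± 0.14 (adjusted p 0.00688). Lilrb4a lies on chromosome 10 at 51490956 to 51496611 and overlaps Gm49339 on its own strand, so its reads may be shared. Clec4d, a receptor that neutrophils also carry, stood at 0.582 and 0.367 in the WT sham pair, 0.263 and 1.2 in the WT SNI pair, 0.608 and 1.74 in the dKO sham pair, and 3.36 and 3.55 in the dKO SNI pair. Only its dKO SNI pair stood apart from all other libraries. Its WT injury change, 0.18 ± 0.29, was not called, whereas that in dKO was 1.09 ± 0.29 (adjusted p 0.0128) and was lost without dKO SNI 2 or dKO sham 1. Clec4n was the exception among the lectins in genotype, at 2.34 and 5.01 in WT SNI and 7.62 and 3.74 in dKO SNI, which overlap. Marco was listed at 0 in all sham libraries and reached at most 0.102 FPKM, and it was not tested.

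Tissue-resident macrophage genes rose after injury in both genotypes, and 1 of the 5 tested was called between dKO SNI and WT SNI. Mrc1 and Cd163 are endocytic receptors, Folr2 binds folate, Lyve1 binds hyaluronan, Siglec1 binds sialic acid and Timd4 recognises dying cells. All 5 tested genes were called higher in both injury comparisons. Cd163, Siglec1 and Folr2 passed the filter only with the SNI libraries counted, which favoured a rise in them and leaves Mrc1 and Lyve1 without that limit. Mrc1 stood at 2.01 and 1.77 FPKM after sham surgery and 19 and 22 after SNI in WT, and 3.36 and 3.33 after sham surgery and 27.7 and 22.2 after SNI in dKO. The dKO SNI pair lay just above the WT SNI pair, while in the sham state the dKO pair was 1.77-fold higher in mean FPKM. Its injury change was 2.89 ± 0.14 in WT and 2.57 ± 0.14 in dKO (limma adjusted p 7.12e-06 and 1.79e-05). Cd163 stood at 0.904 and 0.815 (sham) and 7.24 and 7.69 (SNI) in the WT libraries, against 0.952 and 0.948 (sham) and 7.61 and 5.88 (SNI) in the dKO libraries. Its SNI groups overlapped and its sham groups lay close together. Lyve1 stood at 1.27 and 2.34 in the WT sham pair, 7.03 and 6.03 in the WT SNI pair, 1.6 and 1.65 in the dKO sham pair, and 10.3 and 6.34 in the dKO SNI pair. Both its sham pairs and its SNI pairs overlapped between genotypes, with a difference after injury of 0.28 ± 0.23. Siglec1 stood at 0.353 and 0.243 after sham surgery and 2.29 and 1.52 after SNI in WT, and 0.294 and 0.425 after sham surgery and 2 and 3.92 after SNI in dKO. It too overlapped between genotypes in each surgery, and its WT injury call (1.15 ± 0.23, adjusted p 0.00795) was lost without WT sham 2. Folr2 alone of the group was called in dKO SNI vs WT SNI, by 0.68 ± 0.17 (adjusted p 0.0239), with 3.98 and 4.74 FPKM in WT SNI and 8.47 and 6.76 in dKO SNI. This call was lost with a pseudocount of 0.1, with no filter, with every library scaled to the same total, and without WT SNI 1, dKO SNI 1 or dKO SNI 2. In the sham libraries Folr2 lay between 0.0546 and 0.502 FPKM, where the counting error is unknown. Timd4 reached 0.886 FPKM at most and was not tested.

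The 3 genes best known from microglia, the macrophages of brain and spinal cord, rose after injury in both genotypes, Gpr34 having passed the filter only through the SNI libraries, and 0 of 3 were called between dKO SNI and WT SNI. The ADP receptor P2ry12 stood at 2.25 and 2.15 FPKM (sham) and 4.95 and 6.88 (SNI) in the WT libraries, against 3.96 and 3.11 (sham) and 7.44 and 6.96 (SNI) in the dKO libraries. The dKO libraries lay above the WT ones in both states, narrowly after injury. Its exons overlap those of Med12l on the other strand, and without stranded counts their reads cannot be separated. The membrane protein Tmem119 stood at 0.489 and 0.309 in the WT sham pair, 1.92 and 3.07 in the WT SNI pair, 1.16 and 2.72 in the dKO sham pair, and 4.66 and 4.56 in the dKO SNI pair. Its dKO sham libraries were far apart and overlapped its WT SNI ones, and the injury calls were lost without WT SNI 2 in WT and without dKO sham 1 in dKO. Gpr34, a lipid receptor, stood at 0.173 and 0.263 after sham surgery and 1.7 and 2.49 after SNI in WT, and 0.4 and 0.475 after sham surgery and 3.43 and 2.91 after SNI in dKO. Its groups did not overlap, and the genotype difference after injury, 0.44 ± 0.16, had a limma adjusted p of 0.0751.

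Lineage regulators and pan-myeloid genes included Ly6c2, the member with the largest genotype difference. Spi1 and Irf8 are transcription factors of the myeloid lineage, Ptprc is CD45, Laptm5 is a lysosomal protein of blood cells, Adgre1 is F4/80 and Aif1 is IBA1, which both mark macrophages, and Mpeg1 is a pore-forming protein. Of these 12 genes 11 were called higher after injury in each genotype and 10 were called higher in dKO SNI than in WT SNI. Ly6c2 stood at 9.54 and 10.9 FPKM (sham) and 23.7 and 31.9 (SNI) in the WT libraries, against 14.6 and 22.9 (sham) and 109 and 164 (SNI) in the dKO libraries. The dKO SNI pair was far above all other libraries, 4.91 times WT SNI in mean FPKM (limma adjusted p 0.00688), whereas the dKO sham pair lay above WT sham and below WT SNI 1. Reads of its close relative Ly6c1 may be shared with it. Spi1 stood at 2.34 and 2.26 in the WT sham pair, 6.26 and 7.73 in the WT SNI pair, 2.28 and 3.64 in the dKO sham pair, and 22.9 and 19.6 in the dKO SNI pair. WT SNI was 3.04 times WT sham and dKO SNI was 3.04 times WT SNI, with changes of 1.27 ± 0.18 and 1.48 ± 0.18 (adjusted p 0.00172 and 0.00894). Adgre1, described because it is the classic macrophage marker and chosen after its values were seen, took another course. It stood at 0.83 and 0.931 after sham surgery and 7.18 and 8.73 after SNI in WT, and 1.02 and 1.64 after sham surgery and 11.7 and 9.81 after SNI in dKO. Injury raised it by 2.25 ± 0.17 in WT and 2.34 ± 0.17 in dKO, and the genotype difference after injury, 0.39 ± 0.17, was not called (adjusted p 0.111). Ms4a6d, a membrane protein of macrophages and monocytes, stood at 0.648 and 1.11 (sham) and 7.66 and 7.68 (SNI) in the WT libraries, against 0.75 and 1.99 (sham) and 17.5 and 21.8 (SNI) in the dKO libraries. Its sham groups overlapped, and its SNI groups were separated by 1.25 ± 0.24 (adjusted p 0.0118). Its relatives Ms4a7 and Ms4a6c lie near it on chromosome 19, between 11321039 and 11604849, and were called in the same direction by 0.9 ± 0.19 and 1.32 ± 0.28. Irf8 and Ptprc were called higher in dKO SNI than in WT SNI by 0.97 ± 0.2 and 1.09 ± 0.2.

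Ly86 (MD-1), a partner of the receptor CD180 on B cells and macrophages, took a different course from the other abundant members. It stood at 152 and 127 FPKM in the WT sham pair, 95.1 and 97.7 in the WT SNI pair, 155 and 101 in the dKO sham pair, and 123 and 140 in the dKO SNI pair. The sham level was already among the highest of the 51, the WT SNI pair was the lowest, and the dKO groups overlapped. The WT injury change was -0.52 ± 0.21 (limma adjusted p 0.0953) and the dKO one 0.07 ± 0.21, and neither was called. The WT fall did pass the threshold when dKO sham 1 or dKO sham 2, libraries outside that comparison, was left out. Without dKO sham 2 the injury change averaged over genotypes passed it too.

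Oxidase and lysozyme genes included the most abundant member after injury, Lyz2, and all but Lyz1 were higher in dKO SNI than in WT SNI. Cybb and Cyba encode the membrane core of the phagocyte NADPH oxidase, Ncf1 and Ncf4 its cytosolic subunits, and Lyz1 and Lyz2 are lysozymes. Of the 6, 5 were called higher in both injury comparisons and in dKO SNI over WT SNI. Lyz2 stood at 106 and 122 FPKM after sham surgery and 299 and 489 after SNI in WT, and 127 and 201 after sham surgery and 960 and 803 after SNI in dKO. It was the most abundant member in each SNI library, and both SNI pairs lay above every sham library. The genotype difference after injury was 1.2 ± 0.28 (limma adjusted p 0.018). This call was also lost without dKO SNI 1, with no filter and with quantile normalization. Cyba stood at 5.99 and 4.15 (sham) and 16.8 and 22.9 (SNI) in the WT libraries, against 8.5 and 12.3 (sham) and 49.4 and 48.9 (SNI) in the dKO libraries. Both dKO pairs lay above their WT counterparts. The difference was 0.91 ± 0.21 in sham, which was not called (adjusted p 0.154), and 1.28 ± 0.21 after injury, which was (adjusted p 0.0103). Cybb stood at 2.99 and 4.2 in the WT sham pair, 6.83 and 12.1 in the WT SNI pair, 3.21 and 4.23 in the dKO sham pair, and 23 and 24.5 in the dKO SNI pair. Its sham groups overlapped, its SNI groups did not, and its WT injury call (1.15 ± 0.24, adjusted p 0.00858) was lost without WT SNI 2 or WT sham 1. Ncf1, whose exons overlap Gtf2ird2 on the other strand, was called higher in dKO SNI than in WT SNI by 1.39 ± 0.22 (adjusted p 0.00966). Lyz1, which lies beside Lyz2 on chromosome 10 between 117277331 and 117292868 and may share its reads, stood at 0.565 and 0.595 after sham surgery and 0.716 and 3.63 after SNI in WT, and 1.31 and 1.07 after sham surgery and 1.54 and 3.25 after SNI in dKO. Its WT SNI pair spanned every dKO value, and no comparison called it.

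Lipid, repair and mediator genes rose in part. Plin2 coats lipid droplets, Lpl and Apoc1 act in lipoprotein handling, Nr1h3 is the sterol-sensing receptor LXR alpha, Spp1 is osteopontin, Gpnmb is a lysosomal glycoprotein, Alox5ap is needed for leukotriene synthesis, Pf4 is a chemokine of platelets and macrophages, and Arg1 is arginase. Of the 8 tested, 4 were called higher after injury in WT, 6 in dKO and 4 in dKO SNI over WT SNI. Pf4 stood at 8.92 and 2.51 FPKM (sham) and 35.7 and 49.5 (SNI) in the WT libraries, against 11.8 and 12.7 (sham) and 90.3 and 88.6 (SNI) in the dKO libraries. Its groups did not overlap, but the 2 WT sham libraries were far apart, and the genotype difference after injury, 1.07 ± 0.38, had a limma adjusted p of 0.0657. Plin2 stood at 14.2 and 13.7 in the WT sham pair, 56.5 and 58.6 in the WT SNI pair, 16.4 and 15 in the dKO sham pair, and 54.2 and 47.1 in the dKO SNI pair. It was the only called riser of this group whose dKO SNI pair lay below the WT SNI pair, and the difference was not called. Alox5ap stood at 7.67 and 8.33 after sham surgery and 21.5 and 28.4 after SNI in WT, and 9.13 and 11 after sham surgery and 65.7 and 66 after SNI in dKO. Its groups did not overlap, and dKO SNI exceeded WT SNI by 1.38 ± 0.16 (adjusted p 0.00688). Spp1, which sensory neurons also make and which overlaps Gm42793 on its own strand, stood at 67.3 and 64.3 (sham) and 82 and 96.7 (SNI) in the WT libraries, against 59.5 and 75.2 (sham) and 111 and 135 (SNI) in the dKO libraries. It was abundant before injury and changed by 0.43 ± 0.17 in WT, which was not called, and 0.86 ± 0.17 in dKO, which was (adjusted p 0.00292). Gpnmb lay between 0.701 and 2.61 FPKM in all 8 libraries and was not called in any comparison. Arg1 was at most 1.07 FPKM and was not tested.

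**Figure D3:**
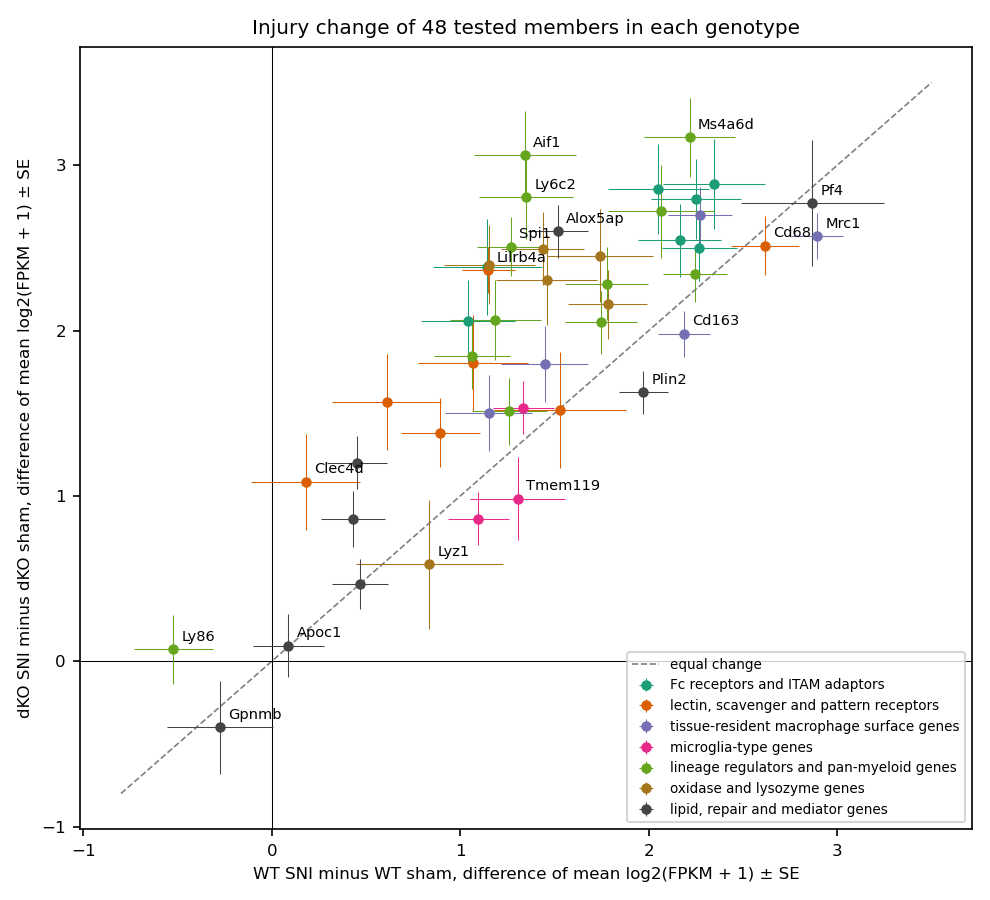
Injury change of the 48 tested members, as differences of mean log2(FPKM + 1) with standard errors, in WT on the horizontal and in dKO on the vertical axis; the dashed line marks equal change. Ly6c2, Spi1, Aif1 and Lilrb4a lie above the line, Plin2, Cd163 and Mrc1 a little below it, and Apoc1 and Gpnmb near 0 on both axes.

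Apoc1 followed the genotype and not the injury. It stood at 2.58 and 3.08 FPKM in the WT sham pair, 2.42 and 3.83 in the WT SNI pair, 9.04 and 6.75 in the dKO sham pair, and 8.56 and 8.28 in the dKO SNI pair. All 4 dKO libraries lay above all 4 WT libraries, while the surgeries overlapped within each genotype. Averaged over the surgeries, dKO exceeded WT by 1.21 ± 0.13 (limma adjusted p 0.00965), and the injury change was 0.09 ± 0.13. Nr1h3, the gene for the receptor that drives Apoc1 and Apoe in macrophages, stood at 1.2 and 0.994 after sham surgery and 2.09 and 1.72 after SNI in WT, and 2.26 and 2.95 after sham surgery and 4.16 and 3.75 after SNI in dKO. The dKO sham pair lay above the WT SNI pair, and dKO exceeded WT by 0.78 ± 0.11 on average (adjusted p 0.00972). Nr1h3 overlaps Gm13783 on its own strand, so its reads may be shared. Apoe itself, outside the 51, stood at 1510 and 1270 (sham) and 1960 and 1700 (SNI) in the WT libraries, against 2590 and 2240 (sham) and 1680 and 1210 (SNI) in the dKO libraries. It was highest in dKO sham, and its genotype difference averaged over surgeries, 0.22 ± 0.17, was not called.

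**Figure D4:**
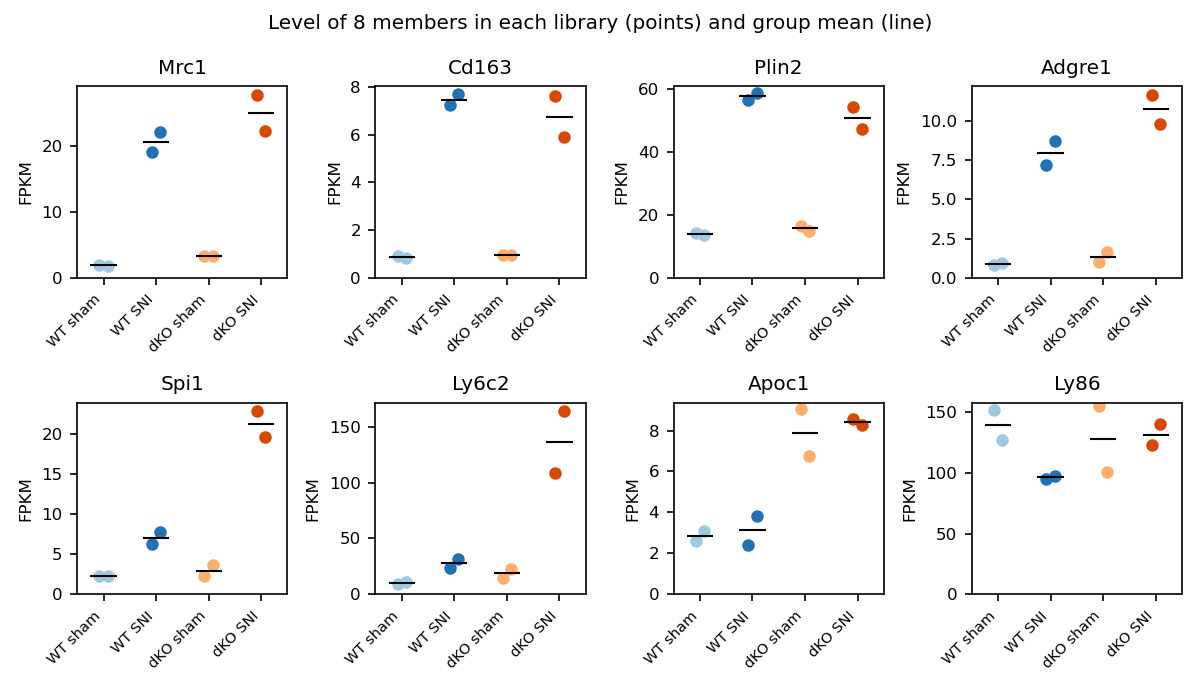
FPKM of 8 members in each library (points) with the group mean (line), on linear axes from 0. Mrc1, Cd163, Plin2 and Adgre1 reach similar heights in WT SNI and dKO SNI, Spi1 and Ly6c2 are several times higher in dKO SNI, Apoc1 divides by genotype and Ly86 shows no rise.

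Averaged over the surgeries, 34 of the 48 tested members were called higher in dKO and 0 lower, against 11.8% and 10.4% of all tested genes, with a median of 0.69 against 0.01. Among them Apoc1, Ly6c2, Alox5ap, Nr1h3, Cyba, Spi1, Fcgr4, Irf8 and Ms4a7 kept the call in every alternative that tested them. The count was 13 without WT SNI 1, 13 without dKO sham 2, 15 without dKO SNI 2 and 19 without WT sham 2, and all of those were among the 34. Over all genes the share called in either direction went from 22.2% to 3.32%, 3.24%, 4.98% and 3.94% in the same order. Mrc1 (0.43 ± 0.1, limma adjusted p 0.0217) lost the call without WT SNI 1, WT sham 2 or dKO sham 2, and P2ry12 (0.38 ± 0.12, adjusted p 0.0443) without any one library except WT SNI 2. In the sham state by itself, 0 members were called higher and 0 lower in limma, against 0.0931% and 0.0621% of all tested genes. At an unadjusted p under 0.05 there were 15 members, 31.2% of those tested, against 10.8% of all genes. Both dKO sham libraries lay above both WT sham libraries for 29 of the 51 members, against 20.9% of all genes. The members' median was 0.39 and that of all genes 0.04. Without dKO sham 2 the members' median was 0.17, and 36 of 48 kept their sign. Apoc1 came nearest, at 1.21 ± 0.19 with an adjusted p of 0.056. The dKO sham libraries differed from each other. Among members with at least 1 FPKM in the higher library, dKO sham 2 was at least 1.5-fold above dKO sham 1 in 18 and below it to that degree in 2. By the same rule WT SNI 2 was at least 1.5-fold above WT SNI 1 in 15 members and below it in 2. These counts were not made over all genes, so they do not set the members apart.

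The difference between the injury responses of the genotypes, dKO minus WT, was called for 0 of the 48 members by limma, against 0.0543% of all tested genes in either direction. At an unadjusted p under 0.05 there were 14, 29.2% of those tested, against 14.5% of all genes. The median was 0.5 for the members and -0.08 for all genes, and without dKO sham 1 the members' median was 0.27. The values ranged from -0.34 for Plin2 to 1.72 for Aif1. That a member was called in one genotype's injury comparison and not in the other's, as for Clec4d, Clec7a, Lpl and Spp1, is therefore not a tested difference.

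Markers of neutrophils moved with the genotype difference. The 14 neutrophil markers examined, which include S100a8, S100a9, Ngp, Camp and Ly6g, summed to 756.3 to 1013 FPKM in WT sham, 1360 to 2640 in WT SNI, 739 to 1232 in dKO sham and 7304 to 7457 in dKO SNI. All 14 were called higher in dKO SNI than in WT SNI, with a median of 1.68, and 0 of them were at 0 in any group. Without WT SNI 1 or dKO SNI 2 most calls of this comparison were lost across the whole table, and the marker calls share that limit. The members were divided from general knowledge, after their values were known, into 16 that neutrophils make as well, such as Spi1, Cybb, Lyz2 and Tyrobp, and 12 that mark macrophages rather than neutrophils, such as Mrc1, Adgre1 and Trem2. Of the 16, all were called higher in dKO SNI than in WT SNI, against 10.7% of all tested genes. Their changes were 0.96 to 1.58, with a median of 1.28. Of the examples named, Lyz2 lost the call with no filter, with quantile normalization or with dKO SNI 1 left out, where Spi1, Cybb and Tyrobp kept it. Other members, Fcer1g and Fcgr3 among them, also lost it with no filter. Of the 12, 11 were tested and 3 were called (Folr2, Ms4a7 and Trem2), with changes of -0.14 to 0.9 and a median of 0.41. Folr2 and Trem2 lost the call with a pseudocount of 0.1, no filter, scaled totals or dKO SNI 1 left out, where Ms4a7 kept it. Both dKO SNI libraries lay above both WT SNI libraries for 16 of the 16 and 9 of the 12, against 23.1% of all genes. After injury in WT the medians were 1.45 for the 16 and 1.75 for the 12, with 14 and 11 called higher, against 13.6% of all tested genes. Several of the 12, Folr2, Ms4a7 and Trem2 among them, passed the filter only with the SNI libraries counted. That favoured their rise, so their injury calls are no separate evidence and the 2 medians are not on an equal footing. The remaining members, Ly6c2 and Fcgr1 among them, were not placed. The part of neutrophil transcripts in the members' levels was not tested.

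Ratios within a library restate these levels without reference to totals; their genes were chosen for the differences already seen, so they are no further evidence of them. Mrc1 over Spi1, as a ratio of FPKM, was 0.859 and 0.784 in the WT sham pair, 3.04 and 2.85 in the WT SNI pair, 1.47 and 0.916 in the dKO sham pair, and 1.21 and 1.14 in the dKO SNI pair. Adgre1 over Spi1 was 0.354 and 0.411 after sham surgery and 1.15 and 1.13 after SNI in WT, and 0.447 and 0.451 after sham surgery and 0.511 and 0.502 after SNI in dKO. In both ratios the WT SNI pair was the highest and the dKO SNI pair lay near the sham libraries. Cybb over Spi1 lay between 1 and 1.86 in all libraries, and there only WT sham and dKO SNI did not overlap each other, at 1.28 and 1.86 against 1 and 1.25. Ly6c2 over Adgre1 was 3.3 and 3.65 in the WT SNI pair and between 9.29 and 16.8 in the other 6 libraries.

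**Figure D5:**
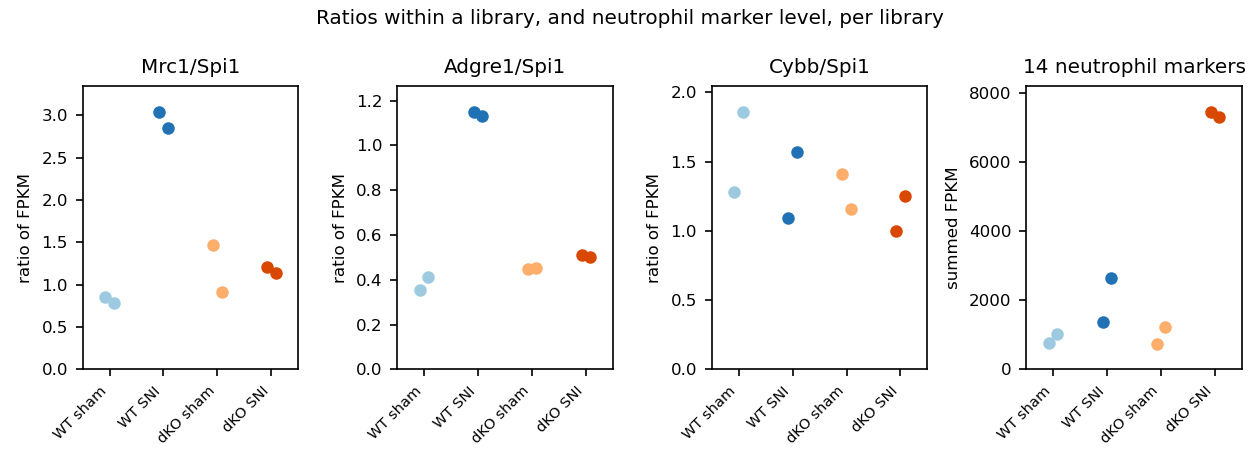
Ratio of FPKM within each library for Mrc1, Adgre1 and Cybb over Spi1, and summed FPKM of 14 neutrophil markers, each point 1 library. The first and second ratios are highest in WT SNI, the third lies between 1 and 1.86 with dKO SNI below WT sham, and the neutrophil sum is 7304 to 7457 in dKO SNI against at most 2640 elsewhere.

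Other cell types also moved. All 6 fibroblast markers were called higher after injury in WT, with a median change of 1.79, and 5 in dKO. They summed to 167.4 to 251.6 FPKM in WT sham, 475.8 to 759.2 in WT SNI, 372.7 to 452.9 in dKO sham and 957 to 1239 in dKO SNI, and 1 of the 6 was called higher in dKO SNI than in WT SNI. The 6 natural killer cell markers summed to 2.24 to 3.874 FPKM in WT SNI and 19.07 to 20.86 in dKO SNI. Most of the dKO SNI sum was Nkg7, at 14.8 and 12.4 FPKM, and Gzma, at 2.61 and 6.7. Ncr1, Klrb1c, Klrk1 and Prf1 were at most 0.667 FPKM in any library and were not tested. All 7 markers of dividing cells were called higher in dKO SNI than in WT SNI. Of 10 sensory neuron markers, 7 were called lower in the dKO SNI pair than in its WT counterpart. Erythrocyte markers summed to 2006 to 5229 FPKM in WT SNI and 3149 to 7827 in dKO SNI, which overlap, and lay at 1302 to 1378 in WT sham and 2059 to 5289 in dKO sham. Dendritic cell markers differed little between genotypes, at 8.267 to 8.754 in WT SNI and 8.483 to 8.512 in dKO SNI. T cell markers summed to at most 4.901 FPKM in any library. The marker calls in dKO SNI vs WT SNI share the dependence on WT SNI 1 and dKO SNI 2 described above. The part of these cells in the members' levels was not tested.

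Genes of the same pathways outside the 51 were read from 3 further lists. Their calls in dKO SNI vs WT SNI also share the dependence on WT SNI 1 and dKO SNI 2. Of all tested genes, 13.6% were called higher after injury in WT, 23.8% in dKO and 10.7% in dKO SNI over WT SNI. Of 17 genes that act below ITAM receptors, 16 were called higher after injury in WT, 17 in dKO and 14 in dKO SNI over WT SNI, with 0 lower in each. Its most abundant gene Rac2, a GTPase that assembles the oxidase, stood at 3.32 and 5.12 FPKM (sham) and 9.43 and 15.1 (SNI) in the WT libraries, against 3.93 and 7.25 (sham) and 37.2 and 31.9 (SNI) in the dKO libraries. Its SNI pairs did not overlap, and the genotype difference after injury was 1.45 ± 0.28 (limma adjusted p 0.0118), beside 1.12 ± 0.16 for the phosphatase Ptpn6. Of 25 further macrophage genes, 23 were tested, and 19, 23 and 14 were called higher in the 3 comparisons, with 0 lower. The lysosomal protease Ctss stood at 5.67 and 3.94 in the WT sham pair, 31.4 and 36.6 in the WT SNI pair, 8.59 and 9.84 in the dKO sham pair, and 58.9 and 85.3 in the dKO SNI pair. Its groups did not overlap, with injury changes of 2.6 ± 0.2 and 2.82 ± 0.2. The actin regulator Coro1a, at 39.7 and 36.1 in WT sham and 27.7 and 33.7 in WT SNI, was not called in WT. In dKO it went from 31.7 and 38.1 in sham to 51.5 and 56.1 in SNI and was called higher by 0.61 ± 0.15. Lst1, at 10.9 and 13.2 in WT SNI and 45.8 and 39.3 in dKO SNI, exceeded WT SNI by 1.74 ± 0.31. Of 14 further lipid and lysosome genes, 6 were called higher and 2 lower in WT, 5 higher and 3 lower in dKO, and 1 higher and 1 lower in dKO SNI vs WT SNI. The lysosomal protease Ctsb was the one called lower there, with a difference of -0.59 ± 0.17 (adjusted p 0.0331), and Ctsd, with a difference of -0.36 ± 0.19, was not called.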

How the data were processed

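The authors deposited FPKM values for 21878 gene symbols in 8 libraries of total RNA from ganglia. Per the submitters' processing notes the builds were GRCm38.p4 and mm10 and the tools edgeR, with no version stated, StringTie 1.3.0 and HISAT2 2.0.4; the sources used here do not give the annotation, strand handling, treatment of multi-mapped reads or later scaling. Ratios between low values were near whole numbers (within 0.1) in 43.3% of 6541 cases, too few to recover reads, and count models were not used.

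From these values log2(FPKM + 1) was computed for the 12884 genes that reached 1 FPKM in 2 or more libraries. Limma 3.58.1 (R 4.3.3) was fitted to all 8 libraries with 1 mean per group (4 residual degrees of freedom), moderation with a mean-variance trend, two-sided tests and Benjamini-Hochberg adjustment across all genes at 0.05. The fit was tested on simulated data. Fold changes on this scale understate those of low genes. Alternatives changed the pseudocount, filter, scaling, moderation and model, and left out each library in turn.

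The members and the gene lists were chosen with earlier results of these data known. Named in each of the 7 role groups were the 2 members with the highest mean FPKM and those with the largest and smallest injury change, then up to 10 members called in each genotype comparison or the interaction, those not tested, and the 3 most abundant genes of each other list. Members outside this rule with values of their own (Adgre1, Cd163, Folr2, Plin2, Clec4n, Gpnmb, Ms4a6c, Aif1) were chosen after their values were seen. Gene positions come from the GENCODE annotation of GRCm38 and promoters from RefSeq (GRCm38.p6).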

Additional observations from a re-analysis of the deposited data

Results flagged for a closer look

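For 2 members the genotype difference had opposite directions in the 2 surgeries, with every dKO library on one side of the WT libraries in sham and on the other side after injury, and the difference of the injury responses was tested. Aif1, which encodes the macrophage marker IBA1, stood at 4.19 and 2.03 FPKM after sham surgery and 7.76 and 10.6 after SNI in WT, and 1.39 and 2.02 after sham surgery and 17.6 and 25.9 after SNI in dKO. Its injury response was 1.72 ± 0.39 larger in dKO on the log2 scale, with an unadjusted p of 0.00142 and a limma adjusted p of 0.209. The lipid-droplet gene Plin2 had a difference of -0.34 ± 0.18 (unadjusted p 0.0863, limma adjusted p 0.39), with dKO above WT in sham and below it after injury. Neither passed the adjusted threshold.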

How the results depend on the processing

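The 118 changes of single named members that were called in the main fit were recomputed under each alternative that tested them. Of these recomputed changes, 1979 kept the call, 148 lost it and 0 reversed. Changes not called in the main fit were left out, so this count cannot show gained calls, and reversals were unlikely from the start. Raising the filter to a mean of 5 FPKM left 26 members tested, with 23 called for injury in WT, 24 for injury in dKO, 20 in dKO SNI vs WT SNI, 24 for injury averaged over genotypes, 21 for genotype averaged over surgeries and 1 in dKO sham vs WT sham. The 1 member called in dKO sham vs WT sham was Apoc1 there, with pseudocounts of 0.1 and 0.5, with every library scaled to the same total, with robust moderation, and without WT SNI 1 or WT SNI 2, and it was Pf4 without WT sham 1; over single libraries left out the count was 0 to 1. With no filter, genotype averaged over surgeries gave 13 calls in place of 34. Leaving out each library gave 13 to 37 calls for that comparison and 0 to 33 for dKO SNI vs WT SNI; the cause was not tested. A group left with 1 library was assumed to vary like the others. No setting changed the 0 calls of the interaction.

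The labels do not say whether equal replicate numbers pair libraries of different groups. Deviations of same-numbered libraries correlated at -0.188 to 0.254, which does not settle it. With the number as a replicate block the counts were 40 for injury in WT, 44 for injury in dKO, 33 in dKO SNI vs WT SNI, 45 for injury averaged, 34 for genotype averaged and 1 (Apoc1) in dKO sham vs WT sham. Among all called genes the share called higher moved with scaling, in WT SNI vs WT sham from 59.3% to 45.5% with scaled totals, 49.9% with median centring and 45.9% with quantile normalization, and with scaled totals from 49.2% to 34.7% in dKO SNI vs dKO sham, from 44.2% to 27.7% in dKO SNI vs WT SNI, from 53.7% to 38.9% for injury averaged and from 53.1% to 34.9% for genotype averaged. Scaled totals moved the all-gene median from 0 to -0.176 in dKO SNI vs dKO sham, from -0.03 to -0.15 in dKO SNI vs WT SNI and from 0.04 to -0.106 for injury averaged, while the members' medians were 2.29, 0.94 and 1.94. Without read counts, low members such as Marco, Timd4, Arg1 and Siglec1 have an unknown counting error.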
